A study of Homo sapiens with 6 samples.

Results

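The 10 genes of the colony-stimulating factor and interleukin-6 families described here, out of 17100 transcripts in the deposited table, are the colony-stimulating factors *CSF1*, *CSF2* and *CSF3*, the interleukin-6 family ligands *IL6*, *IL11*, *LIF* and *CLCF1*, the interleukin-20 subfamily ligand *IL24*, the shared receptor *IL6ST* and the feedback inhibitor *SOCS3*. The genes were found by their symbols, and all 10 symbols were in the table. They were chosen by family and also selected on their counts in the comparison of guadecitabine with vehicle, so that their differences are a description and carry no test. RNA was sequenced from MDA-MB-231, an established triple-negative breast cancer cell line from a breast adenocarcinoma. The 3 guadecitabine libraries came from cells exposed to 1 µM of the drug for 96 h and left without it for 24 h, and the 3 vehicle libraries came from the same line without the drug, with no composition of the vehicle given. Guadecitabine (SGI-110) is a dinucleotide that releases decitabine, which traps DNA methyltransferases and thereby lowers DNA methylation as cells divide. One cell line at one dose and time was studied, and the replicates were independent experiments according to the study's methods.

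Colony-stimulating factors drive the growth and maturation of myeloid cells. CSF1 (M-CSF) acts on macrophages, CSF2 (GM-CSF) on granulocytes, macrophages and dendritic cells, and CSF3 (G-CSF) on neutrophils, and each has its own receptor. The interleukin-6 family ligands signal through complexes that contain gp130, the product of *IL6ST*, which activates Janus kinases and the transcription factor STAT3, and SOCS3 is a STAT3 target that shuts the gp130 complex down. IL-24 signals through receptors of the interleukin-20 type and also activates STAT3. In breast cancer, secreted IL-6, G-CSF and GM-CSF are known for their action on myeloid cells, and the genes of these cytokines are classical targets of NF-kB, AP-1 and C/EBP factors.

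The bases just upstream of *CSF2*, *IL6* and *IL24* are shown first, because these genes were at least 16-fold higher after guadecitabine. The sequences are the 250 bases upstream of the deposited transcript start on GRCh37, which is the assembly of hg19, read 5′ to 3′ on the strand of the gene. Capitals mark matches to the motifs AP-1 (TGANTCA), STAT (TTCNNNGAA), C/EBP (TTGCNNAA), CRE (TGACGT) and the 10-base NF-kB consensus, each searched on both strands, and to the TATA box letters TATAAA on the strand of the gene. No match overlapped another.
CSF2 (chr5:131409235-131409484, plus strand): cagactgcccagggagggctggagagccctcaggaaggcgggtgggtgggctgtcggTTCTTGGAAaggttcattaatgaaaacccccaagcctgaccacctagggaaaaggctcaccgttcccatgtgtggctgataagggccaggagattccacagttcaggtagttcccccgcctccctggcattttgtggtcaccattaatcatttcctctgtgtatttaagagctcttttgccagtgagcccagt
IL6 (chr7:22766516-22766765, plus strand): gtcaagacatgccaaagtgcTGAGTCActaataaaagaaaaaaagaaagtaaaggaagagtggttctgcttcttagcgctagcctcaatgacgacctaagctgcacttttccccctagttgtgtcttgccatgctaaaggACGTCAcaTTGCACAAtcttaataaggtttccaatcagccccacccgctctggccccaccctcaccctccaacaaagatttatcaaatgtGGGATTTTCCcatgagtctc
IL24 (chr1:207070538-207070787, plus strand): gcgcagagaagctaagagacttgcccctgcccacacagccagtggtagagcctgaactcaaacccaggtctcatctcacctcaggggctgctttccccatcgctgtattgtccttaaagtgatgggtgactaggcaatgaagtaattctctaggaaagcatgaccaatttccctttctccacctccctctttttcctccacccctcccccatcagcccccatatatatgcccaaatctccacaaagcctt

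Positions are counted from -1 at the base before the start. *IL6* had matches to AP-1 at -230 to -224, CRE at -110 to -105, C/EBP at -102 to -95 and NF-kB at -20 to -11. *CSF2* had 1 match to STAT at -193 to -185, and *IL24* had 0 matches to any of the 6 motifs. Of the other members searched, *IL11* matched AP-1, *CSF1* matched AP-1, C/EBP and NF-kB, *LIF* matched STAT, and *CLCF1* and *IL6ST* matched none. Over the 17093 transcripts with a complete window, AP-1 was found in 4.58%, STAT in 5.88%, C/EBP in 7.20%, CRE in 7.94%, NF-kB in 5.99% and the TATA box letters in 4.93%. A match is a run of letters and not a bound site, and the position depends on the start that was deposited, which for *LIF* lies 92 bp from the nearest GENCODE start and for the other 9 genes within 6 bp of one.

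CG dinucleotides, the sites of DNA methylation, were counted in the windows of 8 of the 10 members. The windows of *IL24*, *IL6* and *CSF2* held 2, 4 and 4, against a median of 17 over all windows and a lower quartile of 7. *LIF* had 6, *CLCF1* had 9, *IL11* had 16 and *CSF1* had 17. The window of *IL6ST* was rich in CG, with 33, at percentile 89.8 of all windows. DNA methylation of these cells was not analysed here.

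**Figure D1:**
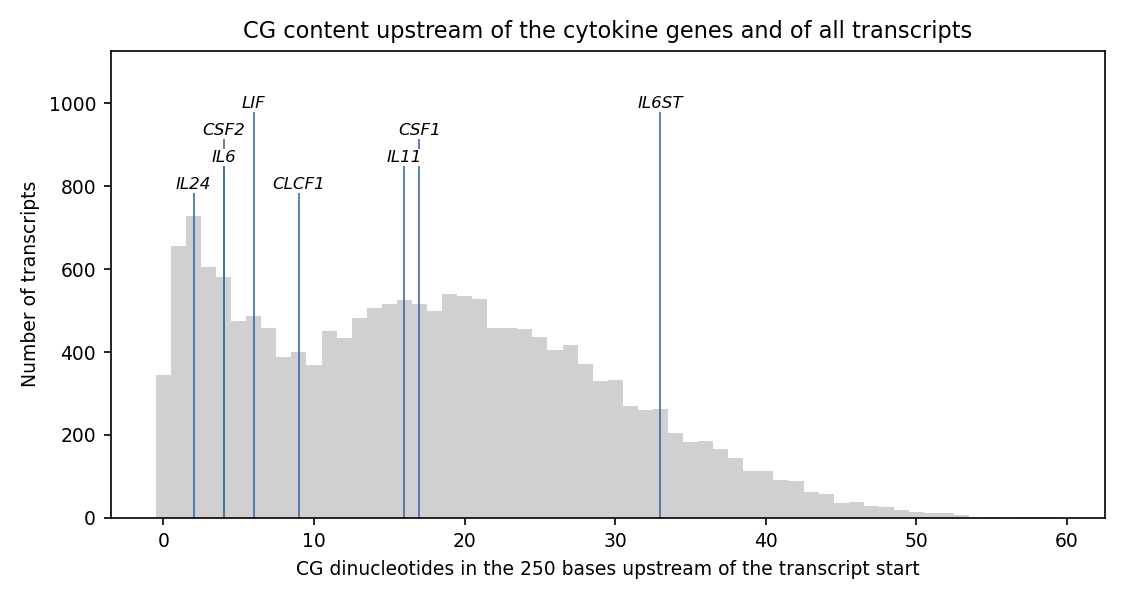
Number of CG dinucleotides in the 250 bases upstream of the transcript start (x axis) against the number of transcripts with that number (y axis, grey bars, 17093 transcripts), with a vertical line for each of 8 members; line height only separates the names. *IL24*, *IL6*, *CSF2* and *LIF* sit between 2 and 6, *IL6ST* at 33.

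The libraries held between 8792127 (guadecitabine replicate 2) and 22277442 counts (vehicle replicate 3). Vehicle replicate 3 stood apart, with 20 transcripts at 0 counts against 1593 to 2517 in the other 5 libraries. Over the 2782 genes at 0 or 1 read in both other vehicle libraries it held a median of 7.78 counts per kb of counted exon, and this background, scaled to the length of the gene, is given below for several low genes. Of 4 genes that MDA-MB-231 is known to express, *VIM* and *CD44* were abundant, with at least 32223 counts of *VIM* and 13085 of *CD44* in each library. Of 4 genes it is known to lack or to hold at low levels, the hormone receptor genes *ESR1* and *PGR* had no more than 1 count outside vehicle replicate 3, while the epithelial adhesion genes *EPCAM* and *CDH1* had 90 to 466 and 6 to 87 counts. The leukocyte genes *PTPRC* and *MS4A1* had at most 3 counts in any library other than vehicle replicate 3, where they had 36 and 24, while *CD14* had 91 to 257 and *LYZ* 13 to 28 counts in every library, with log2 fold changes of 0.12 (adjusted p = 0.618, edgeR) and 0.11 (adjusted p = 0.887, edgeR). *CD3E* was not analysed here. *CD68*, which many cell types express in lysosomes, was the 1 of 3 tested leukocyte genes that was higher after guadecitabine, and it made up most of the summed level of 9 leukocyte genes (3113 to 3610 normalized counts in vehicle, 7513 to 7851 after guadecitabine). Of 4 tested endothelial genes 1, *KDR*, was higher, and the 5 endothelial genes in the table summed to 122 to 274 normalized counts in vehicle and 271 to 345 after guadecitabine.

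Normalized counts are TMM-scaled reads at the mean library size, and log2 fold changes with their standard errors (SE) came from edgeR's quasi-likelihood fit of all 13322 genes that passed its filter on low counts. All 10 members passed the filter. Over all tested genes, 19.3% were called higher and 18.4% lower after guadecitabine at an adjusted p of 0.05. In the same fit 8 of the 10 members were past this threshold on the higher side and 2, *CSF1* and *SOCS3*, on the lower side, which is no result, since the members were selected on this comparison. Without guadecitabine replicate 3, 5 were past it on the higher side, with *LIF*, *CLCF1* and *IL6ST* short of it. *IL6ST* was also short of it without vehicle replicate 1, 2 or 3 or guadecitabine replicate 1. The same held for *LIF* without guadecitabine replicate 2 and for *CLCF1* without vehicle replicate 1. The 2 groups of libraries did not overlap for any of the 10 members, nor for 51.7% of all tested genes, and this too is no result for genes selected on this comparison. In bulk RNA, more cells with a transcript and more transcript in each cell cannot be told apart.

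**Figure D2:**
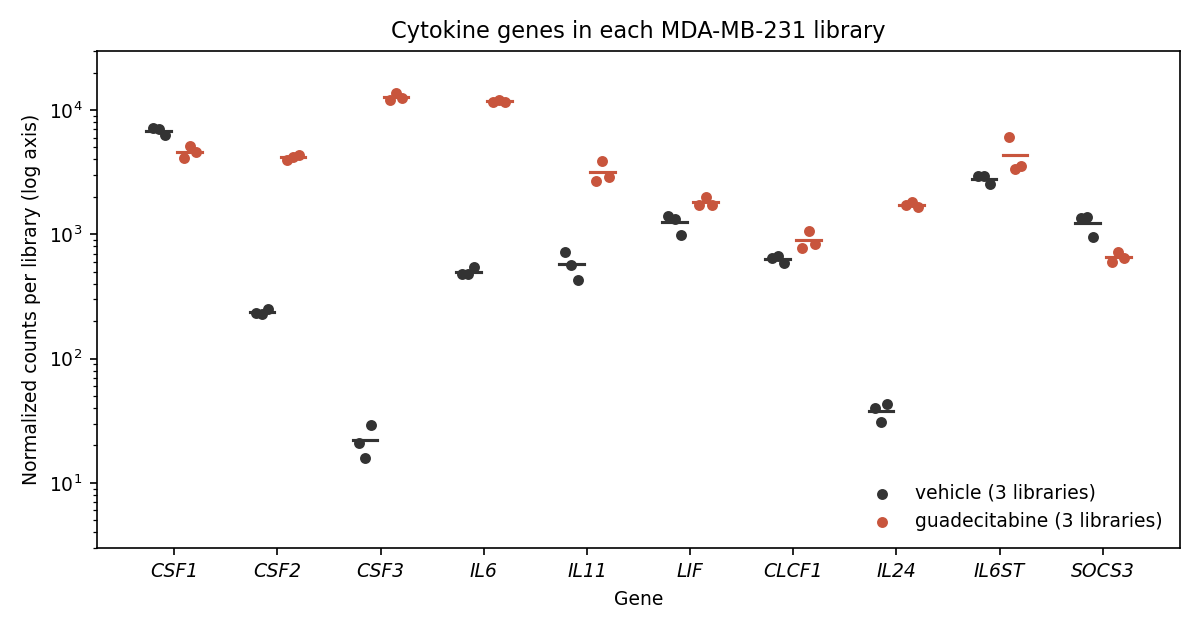
Normalized counts (y axis, log scale) of the 10 genes (x axis) in each vehicle library (dark) and each guadecitabine library (red), with short lines at the group means of 3 libraries. *CSF3* lies between 15.8 and 29.4 in vehicle and between 12060 and 13760 after guadecitabine, while *CSF1* and *SOCS3* are the 2 genes with the vehicle points on top.

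Among the colony-stimulating factors, *CSF3* differed the most. *CSF3* (NM_172220, chromosome 17 from 38171614 to 38174066, plus strand) had 21.0, 15.8 and 29.4 normalized counts in vehicle replicates 1, 2 and 3 and 12060, 13760 and 12570 after guadecitabine. The raw reads behind the vehicle values were 22, 15 and 38, and the background of vehicle replicate 3 for a gene of this exon length was 11.5 reads. The gene was therefore near the bottom of the expressed range in all vehicle libraries and among the most abundant transcripts in all treated ones: by reads per kb of counted exon it ranked 11424 of 13322 in vehicle and 138 after guadecitabine. Its log2 fold change was 9.14 (SE 0.199), or 564-fold, the 9th highest of all tested genes, and stayed between 8.97 and 9.44 over all settings tried.

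*CSF2* (NM_000758, chromosome 5 from 131409485 to 131411863, plus strand) had a moderate level before treatment and a high one after it. It had 231, 229 and 253 normalized counts in the vehicle libraries and 3977, 4168 and 4309 after guadecitabine. The spread within each group was small, with means of 238 ± 12.9 and 4151 ± 167 (SD, n = 3). The log2 fold change was 4.12 (SE 0.112), or 17.4-fold, and the rank by reads per kb went from 4526 to 271.

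*CSF1* (NM_000757, chromosome 1 from 110453233 to 110473616, plus strand) ran the other way. It was the most abundant of the 8 ligand genes in vehicle, with 7166, 7083 and 6265 normalized counts, and had 4077, 5125 and 4595 after guadecitabine. The lowest vehicle library was still above the highest treated one. The log2 fold change was -0.57 (SE 0.115), so that vehicle was 1.49-fold higher, a small difference beside those of *CSF2* and *CSF3*.

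Of the interleukin-6 family ligands, *IL6* had the largest difference. *IL6* (NM_000600, chromosome 7 from 22766766 to 22771621, plus strand), which encodes the founding cytokine of the family, had 482, 476 and 542 normalized counts in vehicle and 11520, 11990 and 11700 after guadecitabine. The treated libraries lay close together although their depths differed, and far above every vehicle library. The log2 fold change was 4.55 (SE 0.111), or 23.4-fold, and the rank by reads per kb went from 3641 to 117, the highest of the members after treatment.

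*IL11* (NM_000641, chromosome 19 from 55875750 to 55881831, minus strand), a ligand with roles in fibrosis, platelet formation and bone metastasis, had 726, 566 and 427 normalized counts in vehicle and 2700, 3867 and 2897 after guadecitabine. Both groups were more scattered than those of *IL6*. The log2 fold change was 2.46 (SE 0.211), or 5.51-fold.

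*LIF* and *CLCF1* differed little. *LIF* (NM_001257135, chromosome 22 from 30636436 to 30642840, minus strand), known for keeping stem cells undifferentiated, had 1415, 1335 and 990 normalized counts in vehicle and 1707, 2005 and 1707 after guadecitabine. *CLCF1* (NM_001166212, chromosome 11 from 67131639 to 67141648, minus strand), a neurotrophic ligand that signals through gp130, had 648, 665 and 585 in vehicle and 780, 1068 and 836 after guadecitabine. The gap between the groups was narrow for both, and the log2 fold changes were 0.53 (SE 0.148) for *LIF* and 0.49 (SE 0.136) for *CLCF1*. Over all settings they stayed between 0.39 and 0.64 and between 0.36 and 0.58.

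*IL24* (NM_001185158, chromosome 1 from 207070788 to 207077484, plus strand) encodes a cytokine of the interleukin-20 subfamily that is studied for killing tumor cells. It had 40.0, 30.6 and 43.3 normalized counts in vehicle and 1737, 1811 and 1657 after guadecitabine. The raw reads in vehicle were 42, 29 and 56, with a background of 5.97 reads in vehicle replicate 3, so that the gene was low but above that background. The log2 fold change was 5.49 (SE 0.149), or 45.1-fold. The end of *IL24* overlaps the end of *FAIM3* on the opposite strand by 854 bp, and the exon length counted for *IL24* was 767 bp, against 1976 bp in its longest GENCODE transcript. Whether reads of the shared stretch were counted for either gene is not given in the sources used here. *FAIM3*, named for this overlap, rose by 0.81 on the log2 scale (adjusted p = 0.00175, edgeR), and if strand was not used its reads in the shared stretch cannot be told apart from those of *IL24*.

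The 2 members that receive or limit the signal differed by less than 2-fold. *SOCS3* (NM_003955, chromosome 17 from 76352858 to 76356160, minus strand) was lower after guadecitabine, with 1362, 1383 and 952 normalized counts in vehicle and 602, 714 and 644 after treatment. Its log2 fold change was -0.92 (SE 0.157), or 1.89-fold higher in vehicle. The inhibitor was thus lower in the same libraries in which *IL6* and *IL11* were higher, and a link between these values was not tested.

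*IL6ST* (NM_175767, chromosome 5 from 55230925 to 55290821, minus strand) had 2932, 2926 and 2563 normalized counts in vehicle and 6034, 3378 and 3554 after guadecitabine. Guadecitabine replicate 1 stood far above the other treated libraries, which lay just above vehicle. The log2 fold change was 0.62 (SE 0.207) with all libraries and 0.31 without guadecitabine replicate 1. *IL6ST* has the longest counted exons of the members, 8972 bp, and this library was higher on long genes in general: the median log2 ratio of guadecitabine replicate 1 to the mean of replicates 2 and 3 was 0.21 over 695 genes with 8000 bp or more, -0.16 over 3824 genes under 2000 bp and 0.80 for *IL6ST*. The part of exon length in the *IL6ST* value was not tested.

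Levels can be compared between the ligand genes in reads per kb of counted exon. In vehicle, *CSF1* had 1615 ± 118 reads per kb (SD, n = 3), followed by *IL6* with 422 ± 30.9, and the ranges of *CLCF1*, *LIF*, *CSF2* and *IL11* overlapped their neighbours in this order. *IL24*, with 49.5 ± 8.55, and *CSF3*, with 14.9 ± 4.60, came last. After guadecitabine the order was *IL6* with 9912 ± 201 reads per kb, *CSF3* with 8622 ± 589, *CSF2* with 5288 ± 212 and *IL24* with 2262 ± 101, none of which overlapped. *IL11*, with 1327 ± 263, and *CSF1*, with 1086 ± 124, overlapped, and *CLCF1* and *LIF* came last and overlapped as well. The 8 ligand genes together had 3334 ± 204 reads per kb in vehicle and 29482 ± 1451 after guadecitabine (SD, n = 3).

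The shares of *CSF1*, *IL6*, *CSF3* and *CSF2* in this sum differed more between the groups than within them. Those of *IL11* were 5.78% to 8.70% in vehicle and 4.03% to 5.24% after guadecitabine. *CSF1* contributed 47.6% to 49.4% in the vehicle libraries and 3.42% to 3.90% after guadecitabine. *IL6* contributed 11.6% to 14.7% in vehicle and 32.6% to 34.5% after guadecitabine, and *CSF3* went from 0.32% to 0.64% in vehicle to between 28.8% and 29.9%. *CSF2* contributed 8.41% to 10.4% and then 17.1% to 18.8%. Among these 8 genes the macrophage factor had the largest share in every vehicle library, and *IL6*, *CSF3* and *CSF2*, in this order, had the largest shares in every treated one.

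**Figure D3:**
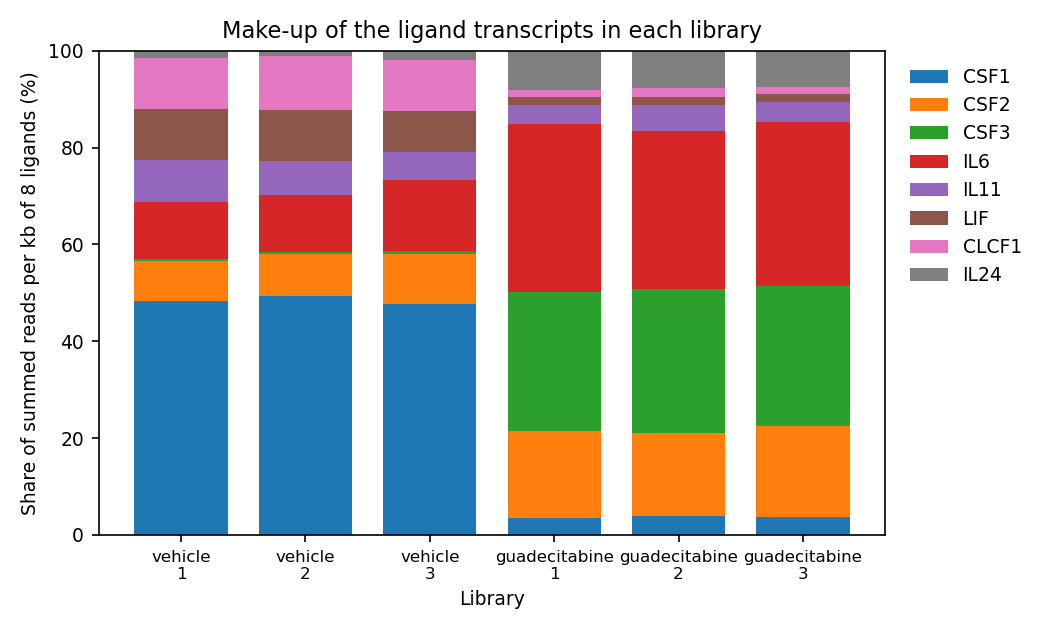
Share of each of 8 ligand genes (colours) in their summed reads per kb (y axis, %), one bar for each of the 3 vehicle and 3 guadecitabine libraries (x axis). *CSF1* makes up 47.6% to 49.4% of the vehicle bars and at most 3.90% of the guadecitabine bars, in which *IL6* and *CSF3* are the widest bands.

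The other genes of the pathway were taken from 7 lists (111 genes, of which 106 were in the table and 92 were tested). Of the 92, 32 (34.8%) were higher and 17 (18.5%) lower after guadecitabine past the threshold of the edgeR test, against 19.3% and 18.4% of all genes, and their median log2 fold change was 0.13, against 0.02. The signal transducers and the upstream inducers held 16 of the 32 higher genes. The lists were chosen with earlier results of these data known, so the difference from all genes is a description only.

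**Figure D4:**
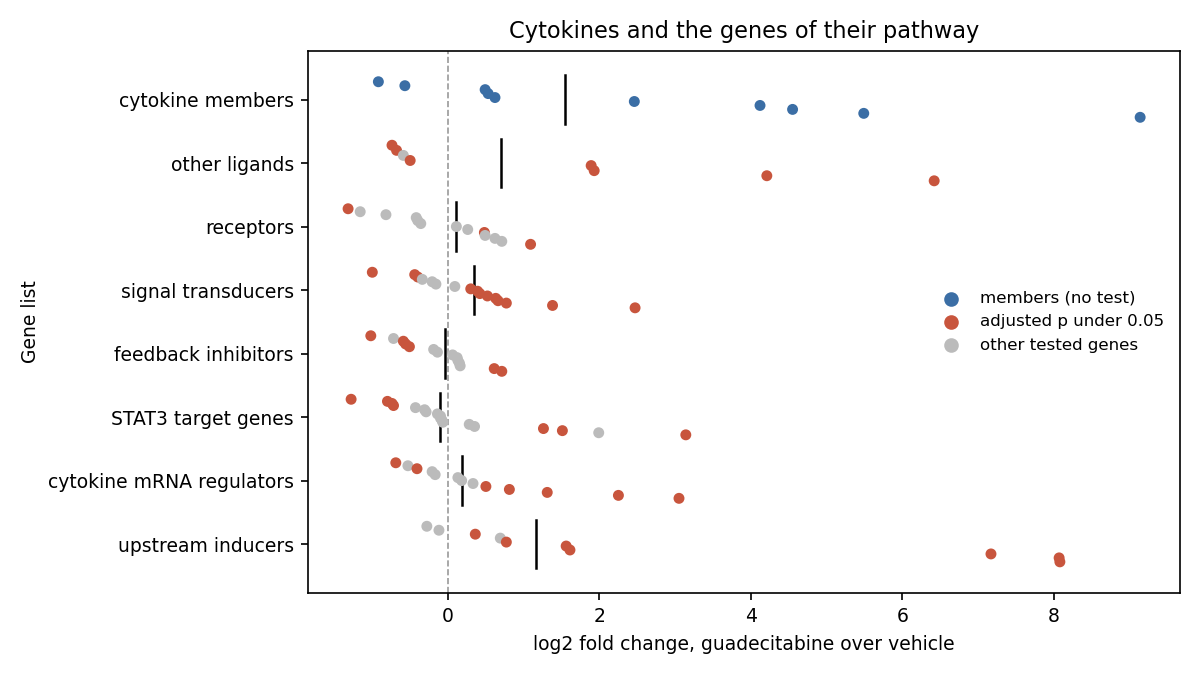
log2 fold change of guadecitabine over vehicle (x axis) for each tested gene of 7 pathway lists and for the 10 members (y axis), with black bars at the list medians, red for an adjusted p under 0.05, grey for other tested genes and blue for members, which carry no test. The receptors, feedback inhibitors and STAT3 target genes have medians of 0.11, -0.04 and -0.10, the upstream inducers of 1.16.

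Among 13 tested receptors, 2 were higher and 1 lower. *CSF1R*, the receptor of CSF1, fell from 251, 247 and 259 to 97.2, 102 and 105 normalized counts in replicates 1 to 3 (log2 fold change -1.32, SE 0.139, adjusted p = 0.000115, edgeR). The groups were far apart, and both the ligand gene *CSF1* and its receptor gene were lower after guadecitabine. *CSF2RA*, the ligand-binding chain for GM-CSF, had 225, 249 and 199 normalized counts in vehicle and 288, 338 and 317 after guadecitabine (log2 fold change 0.48, adjusted p = 0.0214, edgeR), a call that was lost without vehicle replicate 1 (adjusted p = 0.0756, edgeR), vehicle replicate 3 (0.0602) or guadecitabine replicate 3 (0.0801). Its signaling partner *CSF2RB* had 1, 1 and 27 reads in vehicle and 4, 1 and 1 after guadecitabine and was not tested. The 27 reads were below the background of vehicle replicate 3 for its length, 37.7 reads.

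*CSF3R*, the only receptor of G-CSF, had 0 reads in 5 of the 6 libraries, which allows up to 3 reads in each, and 41 in vehicle replicate 3, where the background for its length was 27.1 reads. *CSF3R* was thus not detected in the 3 libraries in which *CSF3* had 6761 to 14890 reads. *IL6R*, the ligand-binding receptor of IL-6, was low throughout, with 7, 6 and 84 reads in vehicle and 56, 17 and 41 after guadecitabine (log2 fold change 0.62, adjusted p = 0.581, edgeR). Vehicle replicate 3 decided this value: its background for the length of *IL6R* was 46.0 reads, and without it the log2 fold change was 2.64 (adjusted p = 0.000251, edgeR). Even then *IL6R* had only 6.84 ± 0.919 reads per kb after guadecitabine (SD, n = 3), against 482 ± 166 for *IL6ST*.

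*LIFR*, the partner of gp130 for LIF and CLCF1, had 715, 755 and 748 normalized counts in vehicle and 759, 389 and 496 after guadecitabine (log2 fold change -0.42, adjusted p = 0.145, edgeR). As for *IL6ST*, guadecitabine replicate 1 was the highest treated library, and without it the value was -0.73 (adjusted p = 0.00267, edgeR). *OSMR*, the oncostatin M receptor, had the highest reads per kb of the listed receptors in both groups, with a log2 fold change of 0.26 (adjusted p = 0.0936, edgeR). For *IL11RA* it was -0.40 (adjusted p = 0.214, edgeR). *IL27RA*, a receptor chain that pairs with gp130 for IL-27, rose from 232 ± 23.4 to 495 ± 78.9 normalized counts (SD, n = 3, log2 fold change 1.09, adjusted p = 0.000535, edgeR). The receptor chains for IL-24, *IL20RA*, *IL20RB* and *IL22RA1*, had at most 34 reads in any library other than vehicle replicate 3 and did not pass the test.

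Among the other ligands, 4 of 8 tested genes were higher and 3 lower. The lower ones were *CTF1* (log2 fold change -0.50, adjusted p = 0.0327, edgeR), *KITLG* (-0.68, adjusted p = 0.0124, edgeR) and *FLT3LG* (-0.74, adjusted p = 0.0195, edgeR). *IL23A*, the p19 subunit of IL-23 and a structural relative of IL-6, rose from 7.62, 14.8 and 17.8 to 1044, 1329 and 1169 normalized counts (log2 fold change 6.42, SE 0.225, adjusted p = 1.92e-07, edgeR). *EBI3*, the receptor-like subunit of IL-27 and IL-35, rose from 41.0, 45.4 and 34.8 to 672, 887 and 675 (log2 fold change 4.21, SE 0.176, adjusted p = 5.41e-07, edgeR). Both were far above vehicle in every treated library, and the 23 reads of *IL23A* in vehicle replicate 3 compare with a background of 8.10 reads there. *IL12A*, the p35 subunit shared by IL-12 and IL-35, rose by 1.93 on the log2 scale (adjusted p = 0.000182, edgeR). *IL34*, the second ligand of the CSF1 receptor, rose by 1.89 (adjusted p = 0.0109, edgeR), while *CSF1* was lower. *IL34* had 12, 22 and 37 reads in vehicle, the last against a background of 13.8. After guadecitabine it stayed far below *CSF1*, with 44.9 ± 16.2 reads per kb against 1086 ± 124 (SD, n = 3). The *IL34* call was lost without guadecitabine replicate 2 (adjusted p = 0.0503) or 3 (0.0548, edgeR).

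Among 16 signal transducers, 9 were higher and 3 lower, and 7 of the 9 higher genes had a log2 fold change under 1. *STAT3* had 3250, 3073 and 2875 normalized counts in vehicle and 4057, 3873 and 4126 after guadecitabine (log2 fold change 0.39, adjusted p = 0.0120, edgeR), a call lost without vehicle replicate 2 (adjusted p = 0.0530) or guadecitabine replicate 3 (0.0673, edgeR). *STAT4*, which transmits IL-12 and IL-23 signals, rose by 2.47 on the log2 scale from 13.1 ± 5.61 normalized counts (SD, n = 3, adjusted p = 0.00182, edgeR), with 25 reads in vehicle replicate 3 against a background of 21.6. *JAK3*, which serves receptors with the common gamma chain, rose by 1.38 (adjusted p = 0.00149, edgeR), from 61.6 ± 16.3 normalized counts.

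The feedback inhibitors had 2 higher and 4 lower genes of 14. *SOCS2*, an inhibitor of growth hormone and related signals, fell from 255 ± 15.2 to 128 ± 20.0 normalized counts (SD, n = 3, log2 fold change -1.02, adjusted p = 0.00106, edgeR), a change of the same sign as that of *SOCS3*. Of 18 tested STAT3 target genes, 3 were higher and 4 lower. The higher ones were *ICAM1*, an adhesion molecule for leukocytes, *CEBPB*, a transcription factor of cytokine genes, and *JUNB*, an AP-1 subunit. *ICAM1* rose from 1950, 1832 and 1972 to 14880, 19200 and 16650 normalized counts (log2 fold change 3.14, adjusted p = 3.45e-07, edgeR). *CEBPB* rose by 1.51 on the log2 scale (adjusted p = 6.62e-05, edgeR) and *JUNB* by 1.26 (adjusted p = 0.00103, edgeR). *SERPINA3*, an acute-phase protease inhibitor, had a value of -1.28 (adjusted p = 0.0230, edgeR), a call lost without vehicle replicate 2 or any guadecitabine replicate (adjusted p from 0.0533 to 0.0859, edgeR). The other lower ones were *BCL2L1* at -0.80 (adjusted p = 0.000600, edgeR), *BIRC5* at -0.74 (adjusted p = 0.00152, edgeR) and *CCND1* at -0.72 (adjusted p = 0.000486, edgeR).

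The last lists concern how these cytokine genes are switched on and how long their mRNA lasts. Of 10 upstream inducers 7 were higher and 0 lower. The AP-1 genes *JUN* and *FOSL1* were not called, with log2 fold changes of -0.28 (adjusted p = 0.170, edgeR) and -0.12 (adjusted p = 0.317, edgeR). Nor was *REL*, at 0.69 (adjusted p = 0.161, edgeR). *IL1A* and *IL1B*, which encode interleukin-1 alpha and beta, had 9.52 to 17.0 and 22.2 to 44.8 normalized counts in vehicle and 3498 to 4460 and 7357 to 9628 after guadecitabine. Their log2 fold changes were 8.07 (adjusted p = 3.32e-08, edgeR) and 8.08 (adjusted p = 8.59e-08, edgeR), and that of *TNF*, the other classical inducer, was 7.17 (adjusted p = 1.96e-06, edgeR). *TNF* had 3, 1 and 18 reads in vehicle and 1098, 532 and 939 after guadecitabine, and without vehicle replicate 3, where the background for its length was 13.0 reads, the value was 8.83 (adjusted p = 2.16e-08, edgeR). The 22 reads of *IL1A* in that library were also at its background, 22.8 reads. *NFKB2* and *RELB*, the subunits of the non-canonical NF-kB pathway, rose by 1.61 (adjusted p = 8.59e-06, edgeR) and 1.56 (adjusted p = 0.000167, edgeR) on the log2 scale.

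Of 13 regulators of cytokine mRNA, 5 were higher and 2 lower. *ZC3H12A* (Regnase-1), a nuclease that degrades *IL6* mRNA, rose from 365, 413 and 408 to 2898, 3659 and 3243 normalized counts (log2 fold change 3.05, adjusted p = 5.41e-07, edgeR). *ARID5A*, which protects *IL6* mRNA, rose by 1.31 on the log2 scale (adjusted p = 0.000335, edgeR). *DUSP1*, a phosphatase that limits p38 signaling, rose by 2.25 (adjusted p = 9.72e-06, edgeR). Genes that raise and genes that lower cytokine mRNA were thus both among the higher ones. The 2 lower genes were *HNRNPD* at -0.69 (adjusted p = 0.000887, edgeR) and *ZFP36L1* at -0.41 (adjusted p = 0.00832, edgeR).

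The genes next to the members on the chromosome were compared to see whether whole regions differed. *FAIM3*, which overlaps *IL24* and rose, is left out of the following count. Of the 20 nearest tested genes, 1 on each side of each member, 5 were higher and 3 lower, with a median log2 fold change of 0.04, against 19.3% higher and 18.4% lower over all genes. *CSF3*, at 9.14, lies 1.28 kb from *MED24* (0.05, adjusted p = 0.764, edgeR) and 17.4 kb from *PSMD3* (0.35, adjusted p = 0.0295, edgeR), neither of which differed by even 1.5-fold. *IL6* lies between *STEAP1B* at 226.9 kb (0.95) and *TOMM7* at 80.6 kb (0.01), and *CSF2* between *MEIKIN* at 128.1 kb, with at most 17 reads, and *P4HA2* at 116.4 kb (0.70). *SUV420H2*, 16.3 kb from *IL11*, was the 1 neighbour past the test with a difference of at least 1 on the log2 scale, and it fell by 1.05 (adjusted p = 0.00679, edgeR) where *IL11* was higher. The lower neighbours also included *AHCYL1* beside *CSF1* and *BIRC5* beside *SOCS3*, genes chosen for naming after their values were seen.

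*IL24* lies in a cluster with 3 related cytokine genes, of which *IL19*, *IL20* and *IL10* did not pass the filter on low counts. *IL20* had 0, 0 and 9 reads in vehicle, the last against a background of 9.60, and 11, 14 and 30 after guadecitabine, *IL19* had 0, 0 and 34 and then 1, 0 and 2, and *IL10* had at most 3 reads outside vehicle replicate 3. *OSM*, the neighbour and relative of *LIF*, had 0, 0 and 15 reads and then 7, 2 and 11. Within 250 kb of the start sites of the 10 members, 13 of 82 tested genes were higher and 14 lower, with a median log2 fold change of 0.01.

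**Figure D5:**
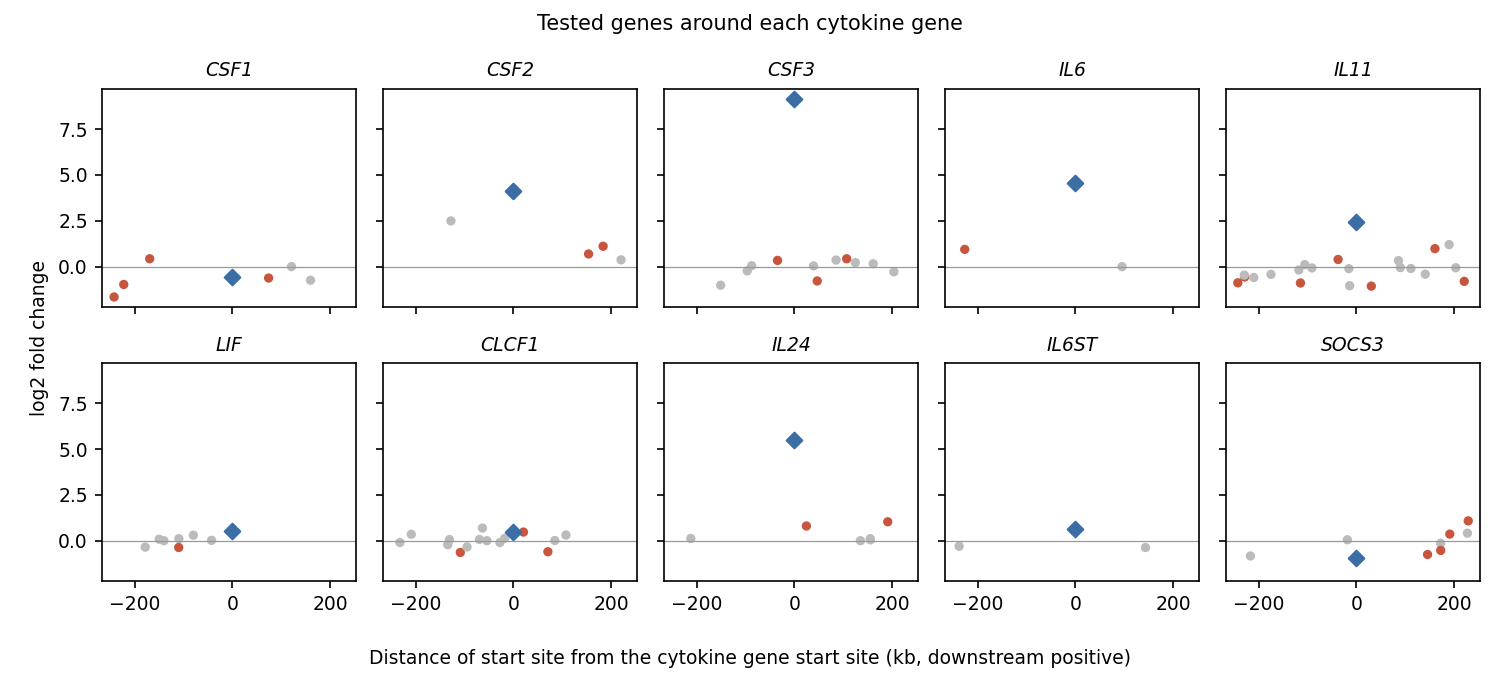
log2 fold change of guadecitabine over vehicle (y axis) for tested genes whose start site lies within 250 kb of that of each member (x axis, kb, downstream positive), 1 panel a member. Blue diamonds are the members, red points genes with an adjusted p under 0.05 and grey points other tested genes; in the panels of *CSF3*, *IL24*, *IL6* and *CSF2* the other genes lie at or under 1.12 except *MEIKIN* at 2.50, which was not called.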

How the data were processed

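RNA of MDA-MB-231 cells was sequenced from 3 vehicle and 3 guadecitabine libraries, grouped by their titles, since the treatment text of the labels reads alike for both groups. Reads were mapped by the authors with STAR to hg19 (version 2.3.1z in the submitters' processing notes), who deposited raw read counts in exons of RefSeq transcripts, counted with iRNA-seq, with the length of the counted exons in bp as another column. The deposited table also holds 6 columns of regularized log values and the statistics of the authors' own DESeq2 comparison, none of which were used. Strand use in counting is not given in the sources used here. The members and lists were chosen with earlier results of these data known.

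The deposited counts entered edgeR 4.0.16 under R 4.3.3 (TMM, filterByExpr, quasi-likelihood test, Benjamini-Hochberg adjustment over 13322 genes, threshold 0.05), and the fit was tested on simulated data. SE values were derived from the F statistic. Totals were 8792127 to 22277442 counts, and the floor of 3 counts covers counting error only. Named pathway genes had an adjusted p under 0.05 and a log2 fold change of at least 1 in size, up to 6 per list, plus *STAT3* and the receptors of the members, and neighbours had to meet the same limits. *CSF2RB*, the IL-24 receptor chains, *OSM*, the genes of the *IL24* cluster and neighbours under these limits were named outside the rule, after their values were seen. So were *JUN*, *FOSL1*, *REL*, *BCL2L1*, *BIRC5*, *CCND1*, *CTF1*, *KITLG*, *FLT3LG*, *HNRNPD* and *ZFP36L1*. Promoter windows of 250 bases came from GRCh37 with Python 3.11.15, and those of 2 members are not reported here. Alternatives were DESeq2 1.42.0 (Wald test, size factors), library totals only, 2 other filters, a test against 2-fold, a replicate block and each library left out. Same-numbered libraries were not paired in the main fit. Their deviations from the group means correlated at -0.050, 0.049 and -0.037 across genes, against -0.061 to 0.063 for differently numbered libraries. With 3 libraries in each group, these values cannot show whether the cultures were matched.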

Additional observations from a re-analysis of the deposited data

How the results depend on the processing

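The log2 fold changes of the 10 members kept their sign under every alternative run. None of the 130 values moved by as much as the spread between replicates. With a library left out this was nearly fixed in advance, since the left-out library also counted in that spread, so it does not show stability. The value of *IL6ST* went from 0.62 to 0.31 without guadecitabine replicate 1. Tested against a change of 2-fold, 435 genes in all were higher and 261 lower, against 2576 and 2446 in the main test, 13 pathway genes were higher and 0 lower, against 32 and 17, and 5 members stayed past the threshold (*CSF2*, *CSF3*, *IL6*, *IL11* and *IL24*). Fewer genes can pass by construction of that test. Without a filter 3 neighbour genes were higher, against 5. With each library left out in turn, 1706 to 3002 genes were higher and 1629 to 2575 lower, with the lowest counts without guadecitabine replicate 3. Under the same settings 5 to 7 members were past the threshold on the higher side, 11 to 19 pathway genes were lower and 1 to 5 neighbour genes were higher. The lowest pathway count was that without vehicle replicate 2. With the replicate number as a block, 2424 genes in all were higher and 2230 lower, 30 pathway genes were higher and 15 lower, and 8 members stayed past the threshold on the higher side. *SERPINA3* had an adjusted p of 0.0588 with the block (edgeR). Pathway and neighbour genes named by the rule were followed under the alternatives. Of their values, 318 kept their side of the threshold, 12 lost and 2 gained a call, and 0 called values changed sign. Depth limits the low genes: the vehicle values of *CSF3* and *IL24* rest on 15 to 56 reads, and *CSF3R*, *CSF2RB* and *IL6R* had a background of 27.1, 37.7 and 46.0 reads for their lengths in vehicle replicate 3, against 41, 27 and 84 reads counted.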

Other observations

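Subunits of the interleukin-12 family, relatives of IL-6 that work as pairs, were uneven in these libraries. *IL23A* encodes p19, which is secreted as IL-23 only with p40, the product of *IL12B*. *IL12B*, looked up after the value of *IL23A* was seen, had 1, 1 and 14 reads in vehicle and 1, 2 and 1 after guadecitabine, while *IL23A* had 1290, 653 and 1158 reads in the same treated libraries. For *EBI3*, which had 830, 436 and 669 reads after guadecitabine, the partner *IL12A* had 195, 63 and 125 reads and the gene of the partner *IL27* was not analysed here. *IL12RB1*, a receptor chain for IL-12 and IL-23 that was also looked up afterwards, had 2, 4 and 24 reads in vehicle and 44, 39 and 57 after guadecitabine, and the 24 reads compare with a background of 21.6 in vehicle replicate 3.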
